A study of Sus scrofa with 5 samples.

Results

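The genes described here encode enzymes of glycolysis, gluconeogenesis, the pyruvate dehydrogenase step, the citrate cycle and the pentose phosphate pathway, together with the kinases that set their rates. They were taken from a list of 47 symbols, of which 45 had a row among the 15235 symbols counted over a pig genome, and PKM and CS were not analysed there. Expression was measured by bulk RNA sequencing of kidney core biopsies from the second case of a pig-to-human kidney xenotransplantation study, with ribosomal RNA removed before library construction. The control group held 2 libraries of untransplanted control kidney at 0 h, and the xenograft group held 1 biopsy of the graft at each of 12, 24 and 48 h. The labels give pig as the organism of all 5 libraries, while the donor's genotype, strain and age are not given in the sources used here. All biopsies came from a single graft, so the 3 times stand in for replicates. Nothing says that the controls came from separate animals, and each p-value reflects only how these libraries vary. The cell type label speaks of dissociated kidney cells, while the protocol describes cores.

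Glycolysis splits glucose into pyruvate in the cytosol, and lactate dehydrogenase can turn that pyruvate into lactate. Gluconeogenesis runs the reverse route through enzymes of its own and, in the kidney, takes place in the proximal tubule, which in turn draws most of its energy from fatty acids and other fuels burnt in mitochondria. Pyruvate dehydrogenase carries pyruvate into the citrate cycle, and its kinases switch it off.

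Pig-table totals ranged from 56129926 to 71108823 counts per library. The 13 mitochondrially encoded genes took 21.9% and 33.4% of the control counts and 11.8% to 14.5% of the biopsy counts. Defining kidney genes were present throughout, with UMOD of the thick ascending limb at 2543.9 to 5125 CPM (counts scaled to a common library size) and AQP2 of the collecting duct at 82.5 to 185 CPM. All CPM below are scaled by TMM, a method that corrects library size for composition. They are not divided by gene length, so levels are compared between libraries and not between genes.

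Of the 45 genes, 42 passed the filter on low counts and were tested, and ALDOC, PFKFB1 and FBP2 had at most 5 counts in any library and were not. In the xenograft 14 of the 42 were called higher than the controls and 16 lower at an adjusted p under 0.05 by edgeR's quasi-likelihood test. Over all 12620 genes tested 37.5% were called, 18.5% as higher and 19% as lower. The glycolysis enzymes went mostly up, with 9 of 16 higher and 1 lower, and all 5 tested genes of gluconeogenesis and fructose use were lower. Pyruvate dehydrogenase and its kinases had 5 of 6 lower, and the citrate cycle was split, with 3 of 9 higher and 3 lower. Median log2 fold changes were 0.65 for glycolysis enzymes, -1.44 for gluconeogenesis and fructose genes, -1.02 for pyruvate dehydrogenase and its kinases and -0.17 for the citrate cycle, against 0.03 for all genes tested. In bulk tissue fewer cells of a type and less RNA per cell cannot be told apart. These counts rest on having both controls. Without control replicate 1 the test called 5 genes higher and 7 lower, and without control replicate 2 it called 4 and 5, although no called gene changed direction in any of the 10 alternative fits. The 9 genes that passed in every one of those fits were HK1, HK2, PFKP, PFKFB3, PKLR, FBP1, PCK2, PDK2 and PDK3.

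**Figure D1:**
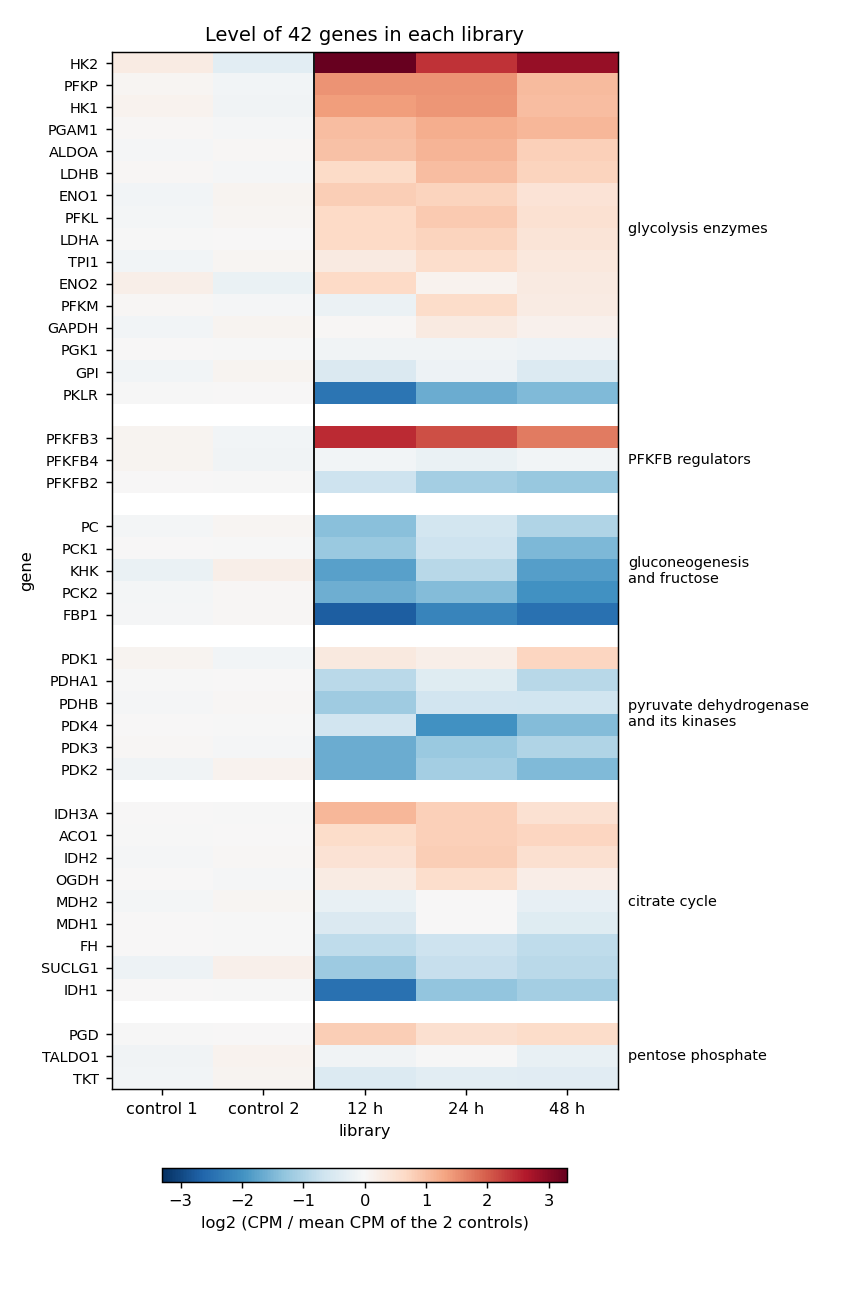
Level of the 42 tested genes (rows, grouped by role) in the 5 libraries (columns), as log2 of CPM over the mean CPM of the 2 controls. HK2 and PFKFB3 have the strongest red in the biopsies, FBP1 is blue at every time, and the citrate cycle block holds both colours.

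Separation between the groups was read from the CPM directly. Among the 42 genes, 17 had every biopsy above both controls and 18 had every biopsy below both, where 33.7% and 32.6% of all genes tested did. The 7 genes whose groups overlapped were PFKM, GAPDH, ENO2, PFKFB4, MDH1, MDH2 and TALDO1.

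**Figure D2:**
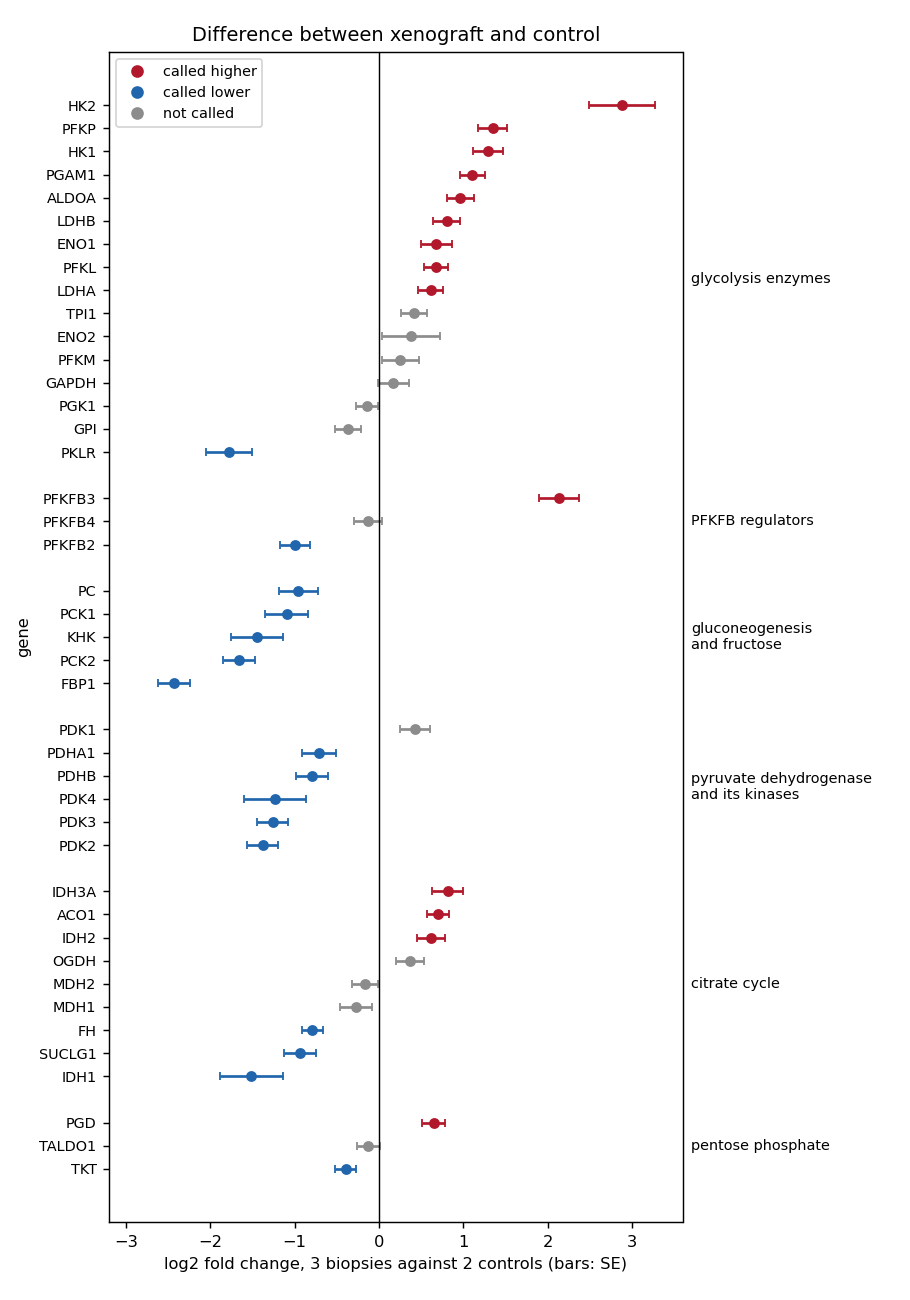
Log2 fold change of the 3 biopsies against the 2 controls for each tested gene, with SE as bars, coloured by call. Points reach from -2.43 for FBP1 to 2.88 for HK2, and grey points, the genes that were not called, lie between -0.37 and 0.43.

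The hexokinase genes HK1 and HK2 were both higher, and their products trap glucose in the cell as its phosphate. HK1, the isoform found in most tissues, was at 75.6 and 64.7 CPM in the controls and at 182, 192 and 141 CPM at 12, 24 and 48 h. Every biopsy lay above both controls, a 2.45-fold difference (log2 1.29 ± 0.17, SE, adjusted p = 0.00217). HK2, the inducible isoform of muscle and growing cells, had 49 and 28 counts in the control libraries, beside 476, 258 and 334 at 12, 24 and 48 h. Its level went from 0.820 and 0.538 CPM to 6.58, 3.54 and 4.98 CPM, 7.37-fold higher (log2 2.88 ± 0.39, adjusted p = 0.00225), with the groups well apart and the highest value at 12 h. Both genes passed without either control, HK2 at 9.33-fold without control replicate 1 and 6.12-fold without control replicate 2.

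The 3 subunit genes of phosphofructokinase, the committing step of glycolysis, did not move alike. PFKP, the platelet-type subunit, was at 30.9 and 27.7 CPM in the controls and 81.7, 82.0 and 60.2 CPM in the biopsies, 2.55-fold higher (log2 1.35 ± 0.17, adjusted p = 0.00182). PFKL, the liver-type subunit, was at 61.3 and 66.1 CPM against 100.1, 115 and 90.3 CPM, 1.60-fold higher (log2 0.68 ± 0.14, adjusted p = 0.0107). PFKM, the muscle-type subunit, was at 61.2 and 57.4 CPM against 51.6, 89.6 and 71.0 CPM. The PFKM groups overlapped and the gene was not called (log2 0.25 ± 0.22, adjusted p = 0.399). PFKL lost its call without control replicate 1 (adjusted p = 0.104) or control replicate 2 (0.0865), whereas PFKP kept its call in both fits (0.0256 and 0.0392).

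Below phosphofructokinase, the pathway was uneven from step to step. ALDOA, an aldolase that splits the sugar bisphosphate, was at 274 and 288 CPM in the controls and 552, 608 and 479.9 CPM in the biopsies, 1.95-fold higher (log2 0.96 ± 0.16, adjusted p = 0.00468). PGAM1, a phosphoglycerate mutase, went from 411 and 391 CPM to 815, 927 and 852 CPM, 2.16-fold higher (log2 1.11 ± 0.15, adjusted p = 0.00237). In both genes the lowest biopsy stood well above the highest control. ENO1, the ubiquitous enolase, was at 682 and 769 CPM against 1277, 1218 and 996 CPM, 1.60-fold higher (adjusted p = 0.0248), with its lowest biopsy at 48 h. The steps between were not called. TPI1, GAPDH and PGK1, encoding triose phosphate isomerase, glyceraldehyde phosphate dehydrogenase and phosphoglycerate kinase, had log2 fold changes of 0.41 ± 0.15, 0.17 ± 0.18 and -0.14 ± 0.13 (adjusted p = 0.0714, 0.501 and 0.425). GAPDH was the most counted of the 45 genes in the biopsies, at 2067, 2472 and 2201 CPM beside 1872 and 2129.9 CPM in the controls, and its groups overlapped. GPI, the isomerase ahead of phosphofructokinase, was below both controls in every biopsy at 265, 324 and 267 CPM against 346 and 389 CPM but was not called (log2 -0.37 ± 0.15, adjusted p = 0.101). ENO2, the neuronal enolase, stayed between 0.825 and 1.52 CPM. Without control replicate 1, ALDOA and ENO1 lost the call (adjusted p = 0.0625 and 0.182), and without control replicate 2 so did ALDOA, ENO1 and PGAM1 (adjusted p = 0.0644, 0.129 and 0.0508). ENO1 also lost it without the 24 h biopsy (adjusted p = 0.0521). Processed copies of genes such as GAPDH and PGAM1 occur in mammalian genomes, and how the counting shared reads among copies is not given in the sources used here.

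At the end of the pathway PKLR, the pyruvate kinase of liver, red cells and proximal tubule, was the 1 glycolysis gene called lower. It was at 20.0 and 20.4 CPM in the controls and at 3.79, 6.50 and 7.40 CPM in the biopsies, 3.43-fold lower (log2 -1.78 ± 0.27, adjusted p = 0.00351), with the lowest value at 12 h. The lactate dehydrogenase genes LDHA and LDHB, whose products interconvert pyruvate and lactate, were both higher. LDHA was at 148 and 151 CPM against 235, 251 and 200.3 CPM, 1.53-fold higher (log2 0.61 ± 0.14, adjusted p = 0.0162). LDHB was at 12.3 and 11.6 CPM against 18.7, 24.1 and 19.8 CPM, 1.75-fold higher (log2 0.80 ± 0.16, adjusted p = 0.00898). Neither passed without control replicate 1 (adjusted p = 0.127 for LDHA and 0.0667 for LDHB) or without control replicate 2 (0.131 and 0.0979), while PKLR passed in each fit. The LDHB row of the pig table is uncertain, because the human table held more counts for that symbol than the pig table in all 5 libraries, at 131 human per 100 pig counts in both controls and at 106 to 117 in biopsies.

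The PFKFB genes encode the enzymes that make and break the sugar bisphosphate that activates phosphofructokinase, and 2 of them moved in opposite directions. PFKFB3, the isoform with the strongest bias toward making it, was at 17.4 and 15.3 CPM in the controls and 90.6, 71.6 and 53.4 CPM in the biopsies, 4.39-fold higher (log2 2.13 ± 0.24, adjusted p = 0.00123). PFKFB2, the heart and kidney isoform, was at 73.8 and 73.5 CPM against 45.6, 34.1 and 30.8 CPM, 2.00-fold lower (log2 -0.999 ± 0.18, adjusted p = 0.00566). In the controls PFKFB2 had more counts than PFKFB3, 4410 against 1039 and 3828 against 798, and in each biopsy it had fewer, 3299 against 6554, 2485 against 5211 and 2068 against 3582. Counts are not divided by gene length, so the shift between libraries can be read but not which gene had more transcripts. PFKFB4 stayed between 7.84 and 9.83 CPM in all libraries (adjusted p = 0.557), and PFKFB1, the liver isoform, had 2 to 5 counts. PFKFB2 lost its call without control replicate 1 (adjusted p = 0.0509) or control replicate 2 (0.0615). The human table held more PFKFB3 and PFKFB2 counts per pig count in the biopsies than in the controls. For PFKFB3 there were 17.0 to 21.6 per 100 against 11.03 and 11.7, and for PFKFB2 12.8 to 15.1 against 7.60 and 8.12. Both calls held with the counts of the 2 tables summed. Summing moved PFKFB2 nearer to no difference (log2 -0.98) but PFKFB3 further up (log2 2.16), so the fit could not test the PFKFB3 call.

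**Figure D3:**
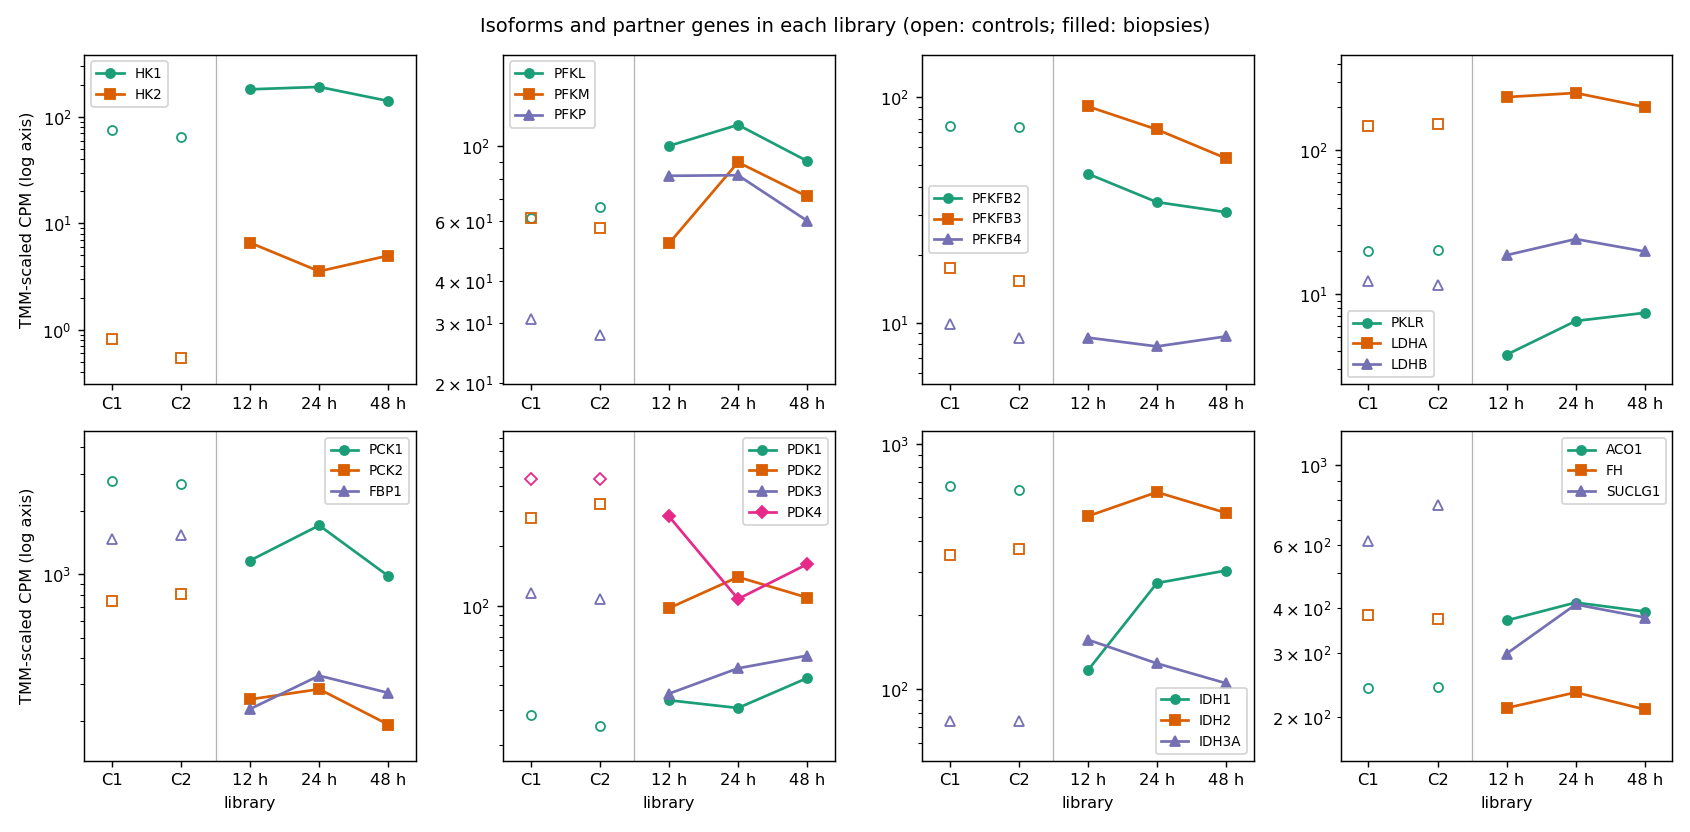
TMM-scaled CPM on a log axis for isoforms and partner genes in controls C1 and C2 (open) and in the 12, 24 and 48 h biopsies (filled, joined by lines). The PFKFB3 and PFKFB2 points change order between controls and biopsies, on a scale that is not divided by gene length. IDH1 climbs from 119 CPM at 12 h to 304 CPM at 48 h, and PDK4 has its lowest value, 108 CPM, at 24 h.

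The listed genes for enzymes that gluconeogenesis does not share with glycolysis were lower wherever they were tested. FBP1, the fructose bisphosphatase that undoes the phosphofructokinase step, was at 1462 and 1531 CPM in the controls and 229, 329.5 and 273 CPM in the biopsies. The difference of 5.40-fold (log2 -2.43 ± 0.19, adjusted p = 0.000554) was the largest fall among the 42 genes. PCK1, the cytosolic phosphoenolpyruvate carboxykinase that is rate-limiting for the pathway, was at 2779 and 2688 CPM against 1159.7, 1703 and 979 CPM, 2.13-fold lower (log2 -1.09 ± 0.25, adjusted p = 0.0154). PCK2, its mitochondrial counterpart, was at 746 and 801 CPM against 254, 284 and 193 CPM, 3.17-fold lower (log2 -1.66 ± 0.19, adjusted p = 0.00123). In each of these genes the groups were far apart. PC, which makes oxaloacetate from pyruvate, was at 676 and 733 CPM against 271, 463 and 355 CPM, 1.94-fold lower (log2 -0.96 ± 0.23, adjusted p = 0.0167). KHK, the kinase that starts fructose breakdown, was at 237 and 315 CPM against 79.2, 147 and 77.8 CPM, 2.72-fold lower (log2 -1.44 ± 0.31, adjusted p = 0.0134). The muscle bisphosphatase gene FBP2 had 0 to 4 counts. Without control replicate 1, PC and PCK1 lost the call (adjusted p = 0.0868 and 0.095), and without control replicate 2, PC, PCK1 and KHK did (0.13, 0.1 and 0.112).

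Markers of the proximal tubule moved in the same direction as these genes. Of 12 markers 10 were counted and 9 of the 10 were called lower. None was at 0, and their summed level was 14083 and 14711 CPM in the controls and 3006 to 4198 CPM in the biopsies. The summed level of the gluconeogenesis and fructose genes was 5901 and 6069 CPM in the controls and 1993, 2927 and 1879 CPM in the biopsies. The lists for other cells were mixed. Endothelial markers summed to 281 and 368 CPM in the controls and 703 to 789 CPM in the biopsies, with 3 of 5 called higher. PECAM1 had the largest rise in CPM, at 116 and 89.8 CPM against 358, 397 and 379 CPM. VWF was above both controls in every biopsy but was not called, and KDR was not called, with overlap (log2 -0.14). Leukocyte markers summed to 398 and 448 CPM against 783 to 1032 CPM, with 4 of 6 tested called higher, CD3E called lower and LYZ at 0 counts in every library. Most of that sum was CD79A, at 356 and 403 CPM against 532 to 703 CPM, and PTPRC, carried by leukocytes in general, was not called, at 19.2 and 20.4 CPM against 12.8, 13.1 and 22.8 CPM with overlap. Collecting duct markers summed to 1005 and 927 CPM against 1029 to 1227 CPM, with 3 of 5 called higher and ATP6V1B1 below both controls in every biopsy. The list for later tubule segments, UMOD included, had 2 of 5 higher and 1, SLC12A3, lower. Its sums overlapped, at 5143 and 4667 CPM against 6488, 8887 and 4752 CPM. Of the red cell markers HBB was called higher at 0.852 to 1.52 CPM against 0.201 and 0.2496 CPM, SLC25A37 was called lower at 9.34 to 10.2 CPM against 17.96 and 18.4 CPM, and ALAS2 had too few counts to test. Of the muscle markers CKM was at 0.663 to 2.07 CPM in all libraries and was not called, and MYLPF had too few counts to test. The part of these cell types in the results was not tested.

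**Figure D4:**
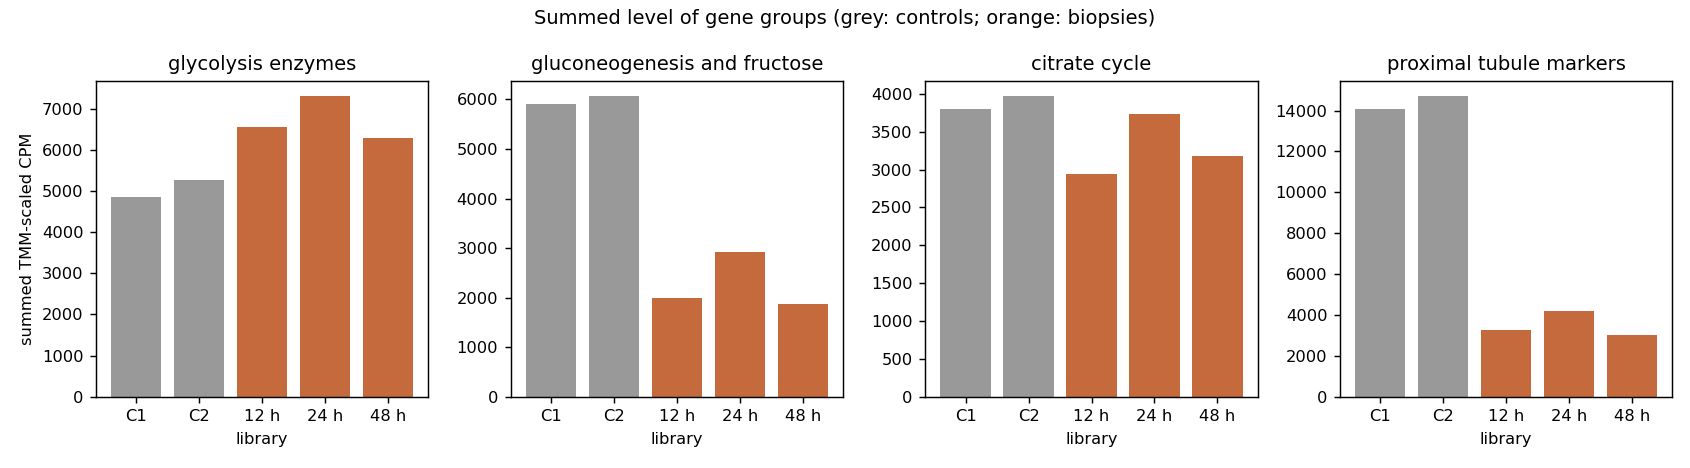
Summed TMM-scaled CPM of 3 gene groups and of the 10 counted proximal tubule markers in controls C1 and C2 (grey) and the 12, 24 and 48 h biopsies (orange). The gluconeogenesis, citrate cycle and proximal tubule bars are lower in all biopsies, and the glycolysis bars are higher. The citrate cycle sum was 3796 and 3970 CPM in the controls and 2938, 3731 and 3180 CPM in the biopsies, with 24 h close to control replicate 1. The 24 h bar is the tallest biopsy bar in each panel.

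At the link between glycolysis and the citrate cycle, the genes of the enzyme and of most of its inhibitory kinases were lower together. PDHA1 and PDHB encode the subunits of the pyruvate dehydrogenase component that removes carbon dioxide from pyruvate. PDHA1 was at 1669.6 and 1678 CPM in the controls and 909, 1264 and 895 CPM in the biopsies, 1.64-fold lower (log2 -0.71 ± 0.20, adjusted p = 0.0317). PDHB was at 383 and 408 CPM against 176, 256 and 252 CPM, 1.74-fold lower (log2 -0.80 ± 0.19, adjusted p = 0.0164). Both had every biopsy below both controls. Among the kinases, PDK2 was at 276 and 327 CPM against 97.5, 139.8 and 110.3 CPM, 2.60-fold lower (log2 -1.38 ± 0.18, adjusted p = 0.00195). PDK3 was at 117 and 109 CPM against 36.3, 48.7 and 56.3 CPM, 2.40-fold lower (log2 -1.26 ± 0.19, adjusted p = 0.00304). PDK4, the kinase raised by fasting and fatty acids, was at 436 and 432 CPM against 282, 108 and 162 CPM, 2.36-fold lower (log2 -1.24 ± 0.37, adjusted p = 0.0414), with a wide spread between biopsies. PDK1, a target of hypoxia-inducible factor, went the other way with every biopsy above both controls, 33.6, 30.7 and 43.4 CPM against 28.4 and 25.0 CPM, but was not called (log2 0.43 ± 0.18, adjusted p = 0.0952).

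The calls of PDK2 and PDK3 held without any 1 library. PDHA1, PDHB and PDK4 lost theirs without control replicate 1 (adjusted p from 0.0887 to 0.156) or control replicate 2 (0.131 to 0.17). PDHA1 also lost it without the 12 h biopsy (adjusted p = 0.0629) and without the 48 h biopsy (0.0519), and PDK4 without the 48 h biopsy (0.0647) and with no filter on low counts (0.0507).

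The citrate cycle did not move as a unit. IDH1, the cytosolic isocitrate dehydrogenase that supplies NADPH, was at 670.4 and 649 CPM in the controls and 119, 269.8 and 304 CPM in the biopsies, 2.86-fold lower (log2 -1.51 ± 0.37, adjusted p = 0.0218). IDH2, the mitochondrial NADPH-forming isoform, was at 352 and 370.2 CPM against 506, 634 and 522 CPM, 1.53-fold higher (log2 0.62 ± 0.16, adjusted p = 0.0237). IDH3A, the catalytic subunit of the NAD-linked enzyme that drives the cycle, was at 74.1 and 73.9 CPM against 159, 127 and 105 CPM, 1.76-fold higher (log2 0.82 ± 0.18, adjusted p = 0.0137). IDH1, IDH2 and IDH3A therefore moved in both directions, with no overlap between groups in any of the 3. The other subunit genes of the NAD-linked enzyme, named after their values were seen, did not follow IDH3A. IDH3G was at 93.3 and 107.5 CPM against 62.6, 74.2 and 74.1 CPM, 1.43-fold lower (adjusted p = 0.0232), a call lost without control replicate 1 (0.0775) or 2 (0.199). IDH3B was not called (adjusted p = 0.845), and its groups overlapped. ACO1, the cytosolic aconitase that doubles as the iron-regulatory protein, was at 241 and 242 CPM against 369.97, 415 and 392 CPM, 1.62-fold higher (log2 0.70 ± 0.14, adjusted p = 0.00783). Of the later steps SUCLG1 and FH were called lower. SUCLG1, a subunit of succinate-CoA ligase, was at 614 and 772 CPM against 299, 409.7 and 377 CPM, 1.92-fold lower (log2 -0.94 ± 0.19, adjusted p = 0.00926). FH, fumarate hydratase, was at 382 and 373 CPM against 212, 234 and 209.7 CPM, 1.73-fold lower (log2 -0.79 ± 0.13, adjusted p = 0.00431).

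OGDH, of the oxoglutarate dehydrogenase complex, was above the controls in every biopsy at 367, 457 and 351 CPM against 309 and 299 CPM but was not called (log2 0.37 ± 0.16, adjusted p = 0.118). MDH1 and MDH2, the cytosolic and mitochondrial malate dehydrogenases, were not called, at log2 -0.27 ± 0.19 and -0.17 ± 0.16 (adjusted p = 0.283 and 0.433), and their groups overlapped. Of the 6 citrate cycle calls only that of SUCLG1 held without control replicate 1, and none held without control replicate 2. Most calls over all genes were lost in these fits too, where a single control library was left. All 6 genes kept their direction. ACO1 was at log2 0.70 in both fits, and SUCLG1 at -1.09 without control replicate 1 and -0.76 without control replicate 2.

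In the pentose phosphate pathway, which makes NADPH and ribose, PGD, encoding phosphogluconate dehydrogenase of its oxidative arm, was at 68.7 and 69.2 CPM in the controls and 121, 99.0 and 104 CPM in the biopsies. This was 1.57-fold higher (log2 0.65 ± 0.13, adjusted p = 0.00958), with no overlap. TKT, the transketolase of the sugar-exchanging arm, was at 217 and 247 CPM against 168, 182 and 178 CPM, 1.32-fold lower (log2 -0.40 ± 0.13, adjusted p = 0.0464). TALDO1, the transaldolase of that arm, ranged from 121 to 156 CPM with overlap and was not called (adjusted p = 0.501). The TKT call was lost when any 1 of the 5 libraries was left out (adjusted p from 0.0619 to 0.311) and with no filter on low counts (0.0547). That of PGD was lost without control replicate 1 (adjusted p = 0.0882) or 2 (0.0989). The human table held 16.6 to 21.1 PGD counts per 100 pig counts in the biopsies against 9.92 and 8.93 in the controls.

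Ratios between isoforms of a library need no scaling between libraries and were set side by side as a description, since 3 libraries against 2 cannot give an exact two-sided permutation p under 0.2. HK2 counts per HK1 count stood at 0.0109 and 0.00831 for the controls and reached 0.0361, 0.0185 and 0.0352 at 12, 24 and 48 h, a 3.02-fold higher ratio. PFKP per PFKM went from 0.505 and 0.484 to 1.58, 0.916 and 0.848, 2.17-fold higher. In both pairs each biopsy lay above both controls. PCK2 per PCK1 was 0.268 and 0.298 against 0.219, 0.167 and 0.197, 1.46-fold lower, so that the mitochondrial gene fell further than the cytosolic one in each biopsy. LDHA per LDHB was 12.0 and 13.1 against 12.6, 10.4 and 10.1, with overlap, and the direction of its mean difference turned with the pig and human counts summed (log2 -0.19 in the pig table and 0.01 summed).

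Change over time within the graft was read from a linear slope through the biopsies at 12, 24 and 48 h. None of the 42 genes passed (0 by edgeR's quasi-likelihood test, where 4.33% of all genes did, 3.34% rising and 0.983% falling), and 7 had an unadjusted p under 0.05. DESeq2 called 2, IDH1 rising and PFKFB3 falling. PFKFB3 had the smallest adjusted p (log2 -0.50 ± 0.12 per 24 h, adjusted p = 0.0594), from 90.6 CPM at 12 h to 53.4 CPM at 48 h. With no filter on low counts it passed (adjusted p = 0.0492). IDH1 had the steepest positive slope (log2 0.77 ± 0.26 per 24 h, adjusted p = 0.155), and its value depended on the 12 h biopsy, at 0.17 per 24 h without it. PKLR and PDK3 had positive slopes of 0.56 ± 0.19 and 0.39 ± 0.13 (adjusted p = 0.155 and 0.139), and IDH3A, PFKFB2 and PFKP negative slopes of -0.38 ± 0.12, -0.35 ± 0.12 and -0.32 ± 0.13 (0.127, 0.176 and 0.217). Without the 12, 24 or 48 h biopsy, where residual variation is taken from the controls only, 3, 9 and 9 of the genes were called. The share over all genes is not given here for each of these fits or for the unadjusted p. These counts therefore do not set the genes apart from the rest.

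A straight slope does not describe genes whose middle biopsy stands out. The 24 h biopsy had the highest CPM of the 3 in 29 of the 42 genes (69.0%), where it was highest in 26.5% of all genes tested. This held for 5 of 5 gluconeogenesis and fructose genes, 12 of 16 glycolysis enzymes and 7 of 9 citrate cycle genes, and for 6 of the 10 proximal tubule markers. Of the PFKFB genes 0 of 3 were highest at 24 h. KHK at 79.2, 147 and 77.8 CPM, PFKM at 51.6, 89.6 and 71.0 CPM and PC at 271, 463 and 355 CPM show the pattern. With 1 biopsy per time, a difference between times and a difference between tissue cores cannot be told apart.

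Other genes of the same pathways, from lists of 47 further enzymes and carriers and 11 regulators, were read from the same test. G6PC1, the glucose phosphatase that releases free glucose at the end of gluconeogenesis, was at 2328 and 2158 CPM in the controls and 234, 350.3 and 188 CPM in the biopsies, 8.71-fold lower (log2 -3.12 ± 0.27, adjusted p = 0.000665). Of 6 tested genes on its list 4 were lower and 1 higher, with the fructose pathway gene TKFC 3.22-fold lower (adjusted p = 0.00223). Among other glycolysis and sugar phosphate genes 5 of 13 were higher and 3 lower. HKDC1, a hexokinase family gene, was at 2.996 and 2.84 CPM against 30.9, 16.2 and 20.2 CPM, 7.67-fold higher (log2 2.94 ± 0.31, adjusted p = 0.00103). PGAM2, the muscle mutase, was 4.39-fold higher at 0.849 to 1.15 CPM against 0.184 and 0.2496 CPM (adjusted p = 0.00712), and GALM, which interconverts the forms of sugars, was 3.82-fold lower (adjusted p = 0.000554).

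Further along, 1 of 7 genes for the rest of the pyruvate dehydrogenase complex and the pyruvate carrier was lower, namely DLD, the shared dehydrogenase subunit, named after its value was seen (1.35-fold, adjusted p = 0.037). Of 12 other citrate cycle and malic enzyme genes 2 were higher and 5 lower. ME1, the cytosolic NADPH-forming malic enzyme, was 3.57-fold higher (adjusted p = 0.00239). In the pentose phosphate pathway 2 of 4 were higher, among them H6PD of the oxidative arm at 1.47-fold (adjusted p = 0.0139), named after its value was seen. DLD and H6PD lost their calls without either control (adjusted p from 0.11 to 0.199), and DLD also without the 12 h (0.052) or the 48 h biopsy (0.0691). Of 10 regulators 4 were higher and none lower, namely HIF1A at 2.64-fold (log2 1.40 ± 0.18, adjusted p = 0.00189), MYC, VHL and ARNT, also named after their values were seen. The regulators EPAS1, PPARGC1A and FOXO1 had log2 fold changes of -0.05, -0.10 and -0.02 and were not called. EGLN3, ESRRA and CRTC2, named after their values were seen, were not called either. EGLN3 had every biopsy below both controls (log2 -0.40, adjusted p = 0.105) and ESRRA every biopsy above both (log2 0.54, adjusted p = 0.0709), while the CRTC2 groups overlapped (log2 0.09). PGAM2 and ARNT lost their calls without control replicate 1 (adjusted p = 0.0834 and 0.0993), and PGAM2, ARNT, VHL and MYC lost theirs without control replicate 2 (0.0684, 0.193, 0.0882 and 0.058). ARNT also lost its call with the pig and human counts summed (0.0528). G6PC1, HKDC1, GALM, ME1, TKFC and HIF1A passed in each of the 10 alternative fits.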

How the data were processed

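Kidney core biopsies gave 5 rRNA-depleted libraries. The authors deposited raw counts per gene symbol over a pig and over a human genome, without scaling. The submitters' processing notes name hg38, and the aligner, counter, strand setting and annotation are not given in the sources used here. Reads matching pig and human alike may fall in either table. Members and gene lists were chosen with earlier results of these data known. Each gene was to be named with values where called, and otherwise by level, range or count, with at most 6 other called pathway genes by size plus 3 genes fixed by name, of which G6PC1 is given and the others are not reported here.

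The analysis used edgeR 4.0.16 under R 4.3.3: TMM scaling, filterByExpr (minimum count 10, minimum total 15), the quasi-likelihood test with robust priors, and Benjamini-Hochberg adjustment over all 12620 genes at 0.05. SE was derived from the log2 fold change and its F statistic (|log2| over root F). The xenograft comparison has 3 residual degrees of freedom and the slope 2. DESeq2 1.42.0, RLE scaling, no filter, no mitochondrially encoded genes, summed pig and human counts, log2 time and leaving out each library were alternatives. The method was also run on simulated data with the same spread for every gene and independent libraries. Biopsies of a single graft are not independent, so that run does not bear on the calls made here. The controls differed by more than sampling noise (chi-square per degree of freedom 212 over 12703 genes). No chromosome positions are given because the tables hold symbols alone. XIST and TSIX were removed from the human table. All 45 symbols were matched in the Ensembl and RefSeq name tables of Sscrofa11.1.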

Additional observations from a re-analysis of the deposited data

Results flagged for a closer look

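The human table, which the comparisons above do not test, held more counts per pig-table count in the biopsies than in the controls for most of these genes. Over the 41 genes with 10 or more counts in every library of both tables, 30 had each biopsy above both controls and 1, LDHB, had each biopsy below. No such count was made over all genes, here or for the quotient below, so these genes cannot be set apart from the rest. The whole tables stood at 22.8 and 18.8 human per 100 pig counts in the controls and at 31.2, 29.0 and 33.4 in the biopsies. In 4 genes the lowest biopsy was over 1.5 times the highest control. This quotient was 1.67 for PGD (values above), 1.64 for PDK4 (12.2, 15.2 and 18.5 human per 100 pig counts against 7.48 and 5.69), 1.58 for PFKFB2 (values above) and 1.57 for PFKFB4 (27.1, 27.7 and 36.2 against 17.2 and 15.3). With the counts of both tables summed, the calls of PDK4 and PFKFB2 held. That of PGD held too, but summing moved this higher gene further up (log2 0.65 to 0.695), so the fit could not test its call.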

How the results depend on the processing

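Of the 30 genes called in the xenograft, 30 kept the call with RLE scaling, without mitochondrially encoded genes, with pig and human counts summed and with DESeq2, and 28 with no filter on low counts. In fits without 1 library, the genes called higher ranged from 4 to 15 and lower from 5 to 15, and over all genes from 464 to 2633 and from 727 to 2633. For the slope these ranges were 0 to 7 rising and 0 to 4 falling, and 349 to 1728 and 83 to 1037 over all genes. The slope count over all genes falling was 265 with DESeq2 and 228 with log2 time, beside 124. Of the 42 genes 1 rose and 1 fell with DESeq2, 1 rose and 1 fell with log2 time, and 1 fell with no filter. Without 1 library the log2 ratio differences ranged from 1.40 to 1.91 (HK2 to HK1), 0.835 to 1.29 (PFKP to PFKM), -0.289 to -0.129 (LDHA to LDHB) and -0.640 to -0.443 (PCK2 to PCK1). The LDHA to LDHB difference was 0.0119 with pig and human counts summed. The cause was not tested. No paired analysis was possible because the labels number the controls alone. Depth limits HK2, ENO2 and PGAM2, which had few counts in the controls.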

Other observations

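PKM and CS, which encode the pyruvate kinase of most tissues and citrate synthase, were counted in the human table alone. PKM had 4869 and 4112 human-table counts in the controls and 17268, 15683 and 15539 at 12, 24 and 48 h, or 81.5 and 78.9 against 239, 215 and 231 CPM on the scaled pig library sizes. CS had 2856 and 2085 counts against 4579, 5369 and 4564, or 47.8 and 40.03 against 63.3, 73.8 and 67.99 CPM. The controls, which also hold these counts, were untransplanted kidney labelled as pig, and the species of origin of the higher counts in the biopsies was not tested. ALDOC had 52 to 183 human-table counts per library beside 0 to 3 in the pig table.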
